A study of Mus musculus with 27 samples.

Results

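Gabre and Gabra3 encode the epsilon and alpha-3 subunits of the GABA-A receptor and lie next to each other on the mouse X chromosome. Their allelic ratios were examined in female embryonic stem (ES) cells in which Xist can be switched on from the 129S X chromosome with doxycycline. The 2 genes were picked by name from 276 X-linked genes in 2 deposited tables, from results already seen in these data: Gabre for its lower ratio after doxycycline in SpenKO cells, Gabra3 for its difference between CIZ1 KO and WT cells. Those contrasts are therefore described without a test. Gabre was present in the Spen table (270 genes, 17 libraries) and in the CIZ1 table (254 genes, 10 libraries). Gabra3 was present in the CIZ1 table alone, so it has no value here in SpenKO cells, in SPOCmut cells or at 3 h.

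The lines were SpenKO (SpenRRM in the series text), SPOCmut (SpenSPOCmut in the series text, with the codes C10, C2 and G1, read here as 3 clones), CIZ1 KO and WT (BglHalo_10H). SpenKO and WT were sampled at 0 h (no doxycycline), 3 h and 24 h, and SPOCmut and CIZ1 KO at 24 h and 0 h. For the libraries at 3 h and 24 h the doxycycline dose is given only as a range, 1 to 1.5 µg/mL. CIZ1 KO and WT were also sampled as neural precursor cells (NPC) at day 30, whose doxycycline treatment is not given in the sources used here. The SPOCmut groups held 3 libraries, SpenKO at 3 h and each NPC group 1, and every other group 2. All lines came from a 129S X Cast background and carried the doxycycline-inducible (TetOn) promoter in place of the Xist promoter on the 129S allele, with a Bgl stem-loop at the Xist 3′ end. The labels give such codes for SPOCmut alone, so in the other lines a line and its genotype cannot be told apart. They do not say that replicates came from separate cultures, so p-values measure the spread between libraries, which may be technical. Cells grew on mouse fibroblast feeders, and the files hold no expression levels, so cell identity and the share of feeder RNA could not be checked from markers.

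Xist is a long noncoding RNA that coats the X chromosome from which it is made and silences genes in cis. SPEN binds Xist RNA and recruits corepressors through its SPOC domain, and CIZ1 is a nuclear matrix protein that binds Xist RNA. GABA-A receptors are ligand-gated chloride channels built from several subunit families, best known for fast inhibition in the brain. The alpha-3 subunit forms part of the binding sites for GABA and benzodiazepines, and epsilon is a rarer subunit that lowers the sensitivity of the receptor to several anaesthetics and sedatives. The assay here was sequencing of chromatin-associated RNA, which is rich in nascent transcripts.

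In the deposited tables Gabre spans chrX:72257431-72274721 (mm10, minus strand, 17291 bp) and Gabra3 spans chrX:72432675-72656246 (minus strand, 223572 bp). The genes are 158 kb apart, and both start about 31 Mb before Xist (31.2 Mb for Gabre, 31.0 Mb for Gabra3). In GENCODE vM21 (GRCm38) Gabre has up to 9 exons and hosts Mir224 and Mir452 on its own strand. Gabra3 has up to 10 exons and hosts Mir767 and Mir105 on its own strand, and it overlaps the pseudogene Gm14735 and the small nuclear RNA gene Gm23461 on the opposite strand. Whether the counting used strand is not given in the sources used here. Gabrq, the theta subunit gene of the same cluster, is not in these tables.

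The promoters are shown because the genes share a chromosome segment and an Xist-coated X but differ in the CG content of the promoter windows used here. Whether CG content bears on the ratios was not tested. Each window is 250 bases before to 50 bases after a RefSeq start site (GRCm38.p6, minus strand), printed 5′ to 3′ with CG dinucleotides in capitals. The Gabre window (chrX:72274672-72274971) uses the start site at the 5′ end of the deposited gene, whereas the nearest Gabra3 start site (chrX:72656758-72657057) lies 561 bp from that of the deposited gene.
Gabre: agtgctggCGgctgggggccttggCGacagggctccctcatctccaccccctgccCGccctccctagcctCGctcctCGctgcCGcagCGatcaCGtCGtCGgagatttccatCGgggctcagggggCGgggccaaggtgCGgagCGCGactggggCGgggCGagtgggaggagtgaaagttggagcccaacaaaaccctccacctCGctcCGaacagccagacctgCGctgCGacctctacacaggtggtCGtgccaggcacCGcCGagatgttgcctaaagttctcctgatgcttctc
Gabra3: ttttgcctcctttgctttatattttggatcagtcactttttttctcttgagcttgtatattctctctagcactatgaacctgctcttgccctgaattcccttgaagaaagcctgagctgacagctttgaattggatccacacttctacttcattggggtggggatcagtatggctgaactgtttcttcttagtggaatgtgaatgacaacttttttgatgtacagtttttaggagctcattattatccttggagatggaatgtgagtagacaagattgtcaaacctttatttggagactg
The Gabre window held 24 CG dinucleotides and 66.7% G and C, and the Gabra3 window 0 CG and 39.3% G and C. The median over the 230 of 276 genes with a matched promoter was 16 CG, 98.7% of these promoters held at least 1, 19.1% held 24 or more, and 1.30% held 0.

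The ratio is a fraction from 0 to 1. It was taken as the part of a gene's allelic reads that came from 129S, because Xist lay between 0.933 and 0.999 over the 17 libraries of the Spen table and the labels place the inducible Xist on 129S. A ratio of 0.5 stands for equal RNA from both X chromosomes, and a lower ratio after doxycycline for a smaller share from the 129S X. Less RNA from that X and more from the Cast X cannot be told apart. No read numbers came with the ratios, so the depth behind each value is unknown. Some values equal fractions of small whole numbers, such as 0.800 and 0.500 for Gabra3 in CIZ1 KO and 0.633333 for Gabre in SpenKO at 3 h. At 24 h the Gabra3 values 0.15625 and 0.236842 in WT and 0.47619 in CIZ1 KO are of this kind too. Few reads may lie behind such values.

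In WT cells the Gabre ratio moved up early and down late. It was 0.469 and 0.451 at 0 h, 0.673 and 0.590 at 3 h, and 0.287 and 0.258 at 24 h. At 3 h Gabre rose by 0.172 ± 0.0266 over 0 h (SE, 95% interval 0.113 to 0.231, adjusted p = 0.00115 in limma). Of 270 genes 22.2% were called in this comparison, 14 of them upward and 46 downward, and the median gene changed by -0.0205. Gabre had the fifth-largest rise. The call rested on the spread taken from all groups: with only the 4 WT libraries of this comparison in the fit the adjusted p was 0.0854 (range over the alternatives 0.000469 to 0.0854), and 2 of 270 genes were called. The median ratio over 9 measured of 14 feeder fibroblast genes was 0.525 ± 0.0346 at 3 h and 0.518 ± 0.00223 at 0 h (SD, n = 2 each). Such ratios do not give the amount of feeder RNA, and its part in the changes of Gabre and Gabra3 was not tested.

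At 24 h Gabre fell by 0.187 ± 0.0266 in WT against 0 h (adjusted p = 5.61e-05), a change close to that of the median gene (-0.197). Here 88.9% of genes were called, so a fall of Gabre was the common outcome, and Gabre was in place 148 of 270 from the lowest change. From 3 h to 24 h it fell by 0.359 ± 0.0266 (adjusted p = 4.01e-07), where 85.9% of genes were called and Gabre was in place 12 from the lowest. The median over the feeder genes was 0.216 ± 0.000534 at 24 h and 0.518 ± 0.00223 at 0 h in WT (SD, n = 2 each), a larger difference than that of the median gene. The lone SpenKO library at 3 h also had a high Gabre ratio, 0.633, against 0.492 and 0.527 in SpenKO at 0 h. It lay inside the WT range at 3 h and above all 14 Gabre values of SpenKO, SPOCmut and WT libraries at 0 h and 24 h.

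**Figure D1:**
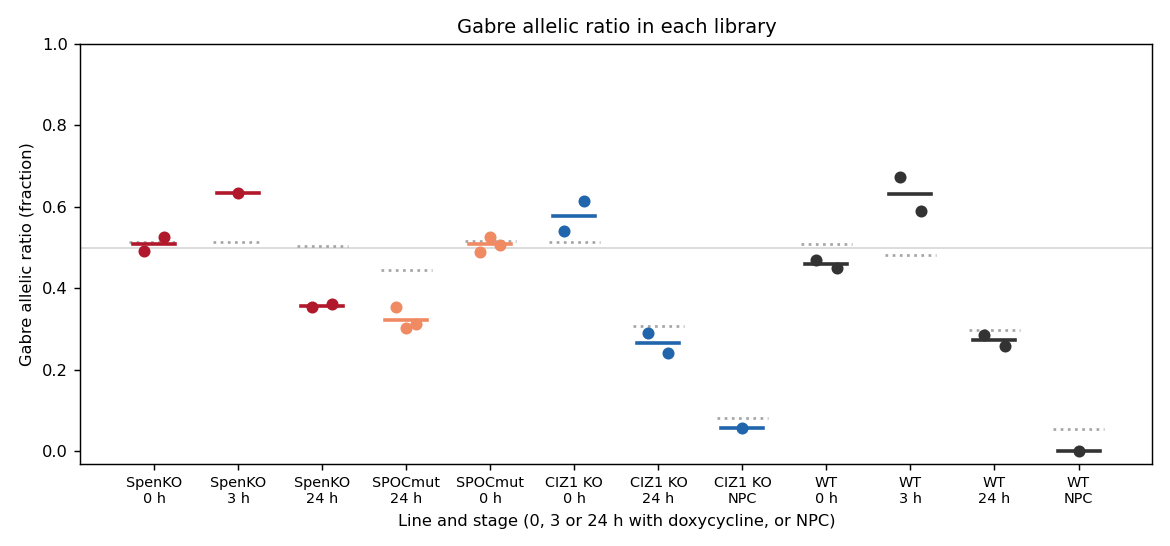
Allelic ratio of Gabre (fraction, vertical axis) in each library, by line and stage. Points are libraries, thick bars are group means, dotted bars are the mean of the library medians over all X-linked genes of the table, and the thin grey line marks 0.5. At 3 h the points of SpenKO and WT lie from 0.590 to 0.673, and at 24 h the points of SpenKO and SPOCmut lie from 0.304 to 0.362, below their dotted bars.

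In SpenKO cells, the contrast for which Gabre was chosen, the ratio was 0.354 and 0.362 at 24 h, against 0.492 and 0.527 at 0 h. The difference was -0.152 ± 0.0266 (SE), in place 4 of 270 from the lowest, while the median gene differed by -0.00937 and 0.741% of genes were called (limma, 0 higher and 2 lower; without adjustment 1 was higher and 18 lower at a p below 0.05). At 24 h the library medians over all genes were 0.503 and 0.506, and Gabre minus the library median was -0.149 and -0.144. At 0 h that difference was -0.0262 in replicate 1 and 0.0160 in replicate 2. The median over the feeder genes was 0.511 ± 0.00463 at 24 h and 0.527 ± 0.0102 at 0 h in SpenKO (SD, n = 2 each).

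SPOCmut cells gave a comparison that was not the stated reason for the choice of Gabre, although earlier results of these data were known. The ratio was 0.354, 0.304 and 0.313 at 24 h in clones C10, C2 and G1, against 0.490, 0.527 and 0.507 at 0 h. All 3 clones were lower with doxycycline. Gabre fell by 0.184 ± 0.0217 (SE, adjusted p = 4.35e-05), where 49.6% of genes were called and the median gene changed by -0.0658. Gabre was in place 28 of 270 from the lowest change. The median over the feeder genes was also lower with doxycycline, at 0.392 ± 0.0227 at 24 h and 0.544 ± 0.00385 at 0 h (SD, n = 3 each), while the library medians over all genes averaged 0.446 at 24 h and 0.517 at 0 h.

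The Gabre response to 24 h of doxycycline was -0.184 in SPOCmut and -0.187 in WT. The difference of the responses was 0.00264 ± 0.0343 (SE, 95% interval -0.0732 to 0.0785, adjusted p = 0.961), so differences within that interval are not excluded. Over all genes 58.5% were called in this comparison, 158 of them higher and 0 lower in SPOCmut (limma; without adjustment 170 and 0 had a p below 0.05). The median gene differed by 0.121, and Gabre was in place 17 from the lowest. Compared directly at 24 h, Gabre averaged 0.324 ± 0.0265 in SPOCmut (SD, n = 3) and 0.273 ± 0.0201 in WT (n = 2). The difference of 0.0509 ± 0.0242 (SE, 95% interval -0.00269 to 0.105) did not pass (adjusted p = 0.0746), in a comparison where 79.3% of genes were called.

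**Figure D2:**
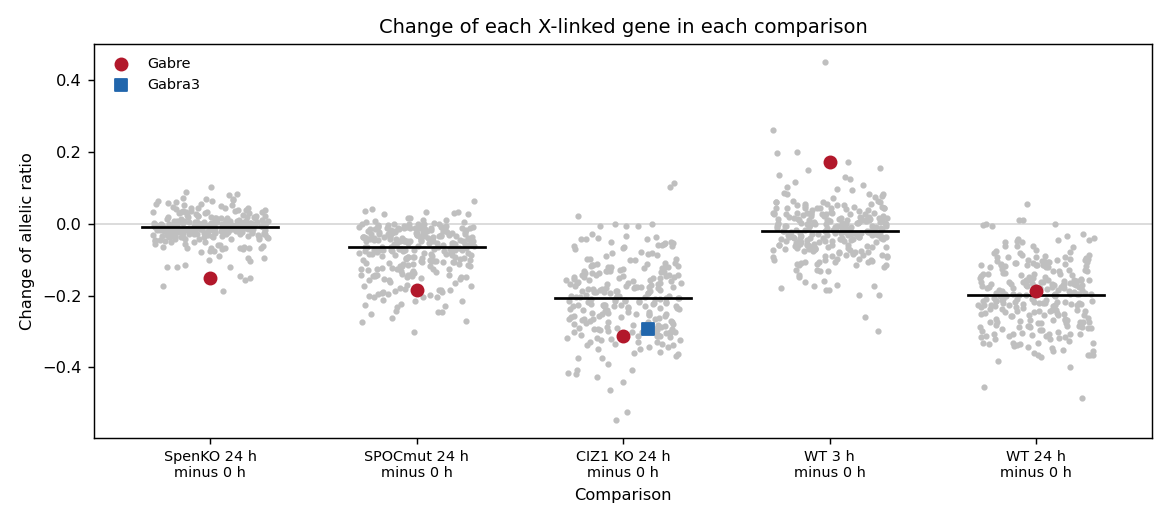
Change of the allelic ratio (difference of group means, vertical axis) of every X-linked gene of the table in 5 comparisons. Grey points are genes, spread sideways only for visibility, black bars are medians over genes, the red circle is Gabre and the blue square Gabra3, which is in the CIZ1 table alone. Gabre stands far below the median in SpenKO (-0.152 against -0.00937) and SPOCmut (-0.184 against -0.0658), close to it in WT at 24 h and above it in WT at 3 h.

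In CIZ1 KO cells Gabre was at 0.292 and 0.241 at 24 h, against 0.541 and 0.615 at 0 h. It fell by 0.311 ± 0.0312 (SE, adjusted p = 0.000255), where 85% of 254 genes were called and the median gene changed by -0.207, and Gabre was in place 37 from the lowest. The median over the feeder genes was 0.272 ± 0.0174 at 24 h and 0.547 ± 0.00491 at 0 h in CIZ1 KO (SD, n = 2 each). CIZ1 KO and WT differed little in Gabre at 24 h, with 0.266 ± 0.0359 in CIZ1 KO and 0.273 ± 0.0201 in WT (SD, n = 2 each) and overlapping libraries. At 0 h the CIZ1 KO libraries were the higher ones, with 0.578 ± 0.0521 in CIZ1 KO against 0.460 ± 0.0128 in WT (SD, n = 2 each). The response thus differed by -0.124 ± 0.0441 (SE, CIZ1 KO minus WT). These differences between the lines belong to the contrast that picked Gabra3 and carry no test.

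Gabra3 started from a 129S-biased level in both lines. At 0 h it was 0.765 and 0.800 in CIZ1 KO and 0.703 and 0.627 in WT, all above the library medians of 0.506 to 0.519. At 24 h it was 0.500 and 0.476 in CIZ1 KO, against 0.156 and 0.237 in WT. Both CIZ1 KO libraries were near equal shares, while both WT libraries lay below their library medians of 0.289 and 0.297.

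At 24 h the Gabra3 difference, CIZ1 KO minus WT, was 0.292 ± 0.0374 (SE). It was the highest of 254 genes, of which 0% were called (limma; without adjustment 21 were higher and 4 lower at a p below 0.05), and the median gene differed by 0.00882. At 0 h the difference was 0.118 ± 0.0374. The change with doxycycline was -0.294 ± 0.0374 in CIZ1 KO and -0.468 ± 0.0374 in WT, a difference of responses of 0.174 ± 0.0529. The WT change was the lowest of 254 genes, and that in CIZ1 KO was in place 53. All of these values share libraries with the difference for which Gabra3 was picked, so none was tested. Few reads may lie behind the Gabra3 ratios of both lines. The CIZ1 KO libraries without doxycycline also agreed less over genes (r = 0.745) than the other pairs of this table (0.847 to 0.905).

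**Figure D3:**
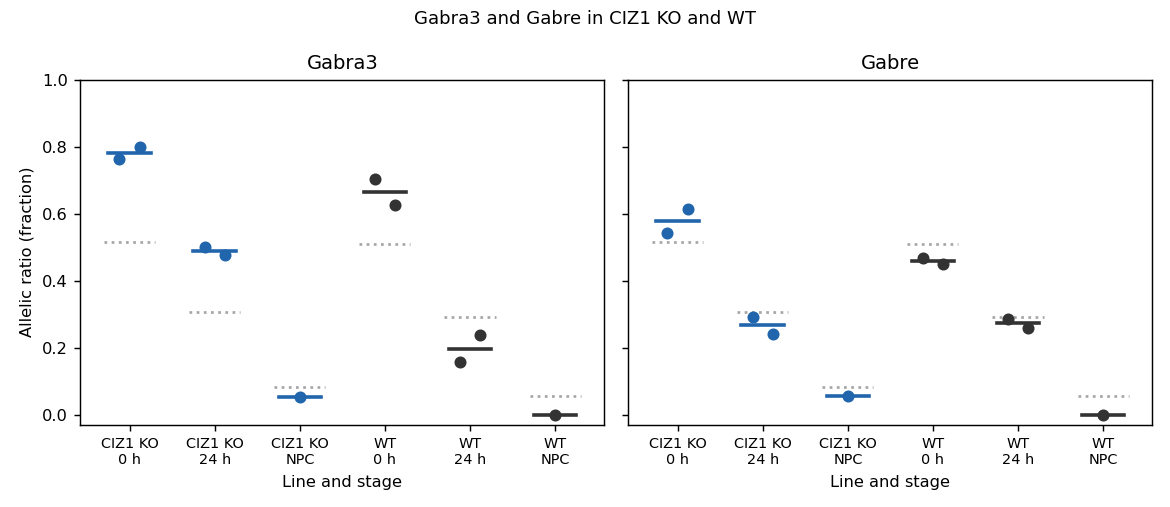
Allelic ratio (fraction, vertical axis) of Gabra3 and Gabre in CIZ1 KO and WT, by stage. Points are libraries, thick bars are group means and dotted bars are the mean of the library medians over 254 genes. Gabra3 in CIZ1 KO at 24 h lies at 0.500 and 0.476, above its dotted bar, whereas Gabre in the same libraries lies at 0.292 and 0.241.

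Within the ES libraries Gabra3 exceeded Gabre by a similar amount, except in WT at 24 h. Gabra3 exceeded Gabre by 0.224 and 0.185 in CIZ1 KO and by 0.234 and 0.176 in WT at 0 h. At 24 h it exceeded Gabre by 0.208 and 0.235 in CIZ1 KO, whereas in WT it was lower than Gabre, with differences of -0.131 and -0.0216. The WT libraries at 24 h enter the difference for which Gabra3 was picked, so this departure was not tested. In NPC both ratios were low: Gabra3 was at 0.0526 and Gabre at 0.0566 in the CIZ1 KO library, and both were listed at 0 in the WT library. In the CIZ1 KO library 90 of 254 genes lay below Gabra3 and 99 below Gabre. The library medians were 0.0830 in CIZ1 KO and 0.0546 in WT, and 25 of 254 genes were listed at 0 in CIZ1 KO and 24 in WT. With 1 NPC library per line these values have no replicate check.

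Ordered by group mean, Gabre ran from 0 in WT NPC and 0.0566 in CIZ1 KO NPC to 0.266 in CIZ1 KO, 0.273 in WT, 0.324 in SPOCmut and 0.358 in SpenKO at 24 h. Then came WT (0.460), SPOCmut (0.508), SpenKO (0.510) and CIZ1 KO (0.578) at 0 h, and WT (0.632) and SpenKO (0.633) at 3 h. Libraries of adjoining groups overlapped between CIZ1 KO and WT at 24 h, SPOCmut and SpenKO at 24 h, SPOCmut and SpenKO at 0 h, CIZ1 KO at 0 h and WT at 3 h, and WT and SpenKO at 3 h.

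Genes within 2 Mb of Gabre gave the local setting. In these counts "rose" and "fell" mean called by limma. In WT at 24 h 35 of 40 neighbours fell, near the 88.9% called over all genes, and their median change of -0.193 was near that of all genes (-0.197). At 3 h in WT 3 of 40 rose and 5 fell, near the 22.2% called over all genes, with a median of -0.0256 against -0.0205. The only neighbour that changed further upward than Gabre was Mamld1, by 0.452 ± 0.0633 (adjusted p = 0.000587). The nearest measured genes on either side in the Spen table were, at 3 h, Prrg3, which encodes a transmembrane Gla protein, at 0.0773 ± 0.0769 (adjusted p = 0.558), and the centrin gene Cetn2 at -0.174 ± 0.0873 (adjusted p = 0.190). In SPOCmut 17 of 40 neighbours fell at 24 h, beside 49.6% called over all genes, with a median of -0.0629 against -0.0658. Only 4 had a larger fall than Gabre, the largest being that of Cd99l2, with a change of -0.226.

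For the difference of responses, SPOCmut minus WT, the 40 neighbours ran from 0.0116 (BC023829) to 0.316 (Pdzd4), and each was above the 0.00264 of Gabre. In SpenKO 0 of 40 neighbours were called (0.741% of all genes were), and their changes ran from -0.121 (Cetn2) to 0.103 (L1cam), with a median of -0.00438. For CIZ1 KO minus WT at 24 h the 31 neighbours other than Gabre and Gabra3 ran from -0.0760 (Dusp9) to 0.124 (Prrg3), below the 0.292 of Gabra3.

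**Figure D4:**
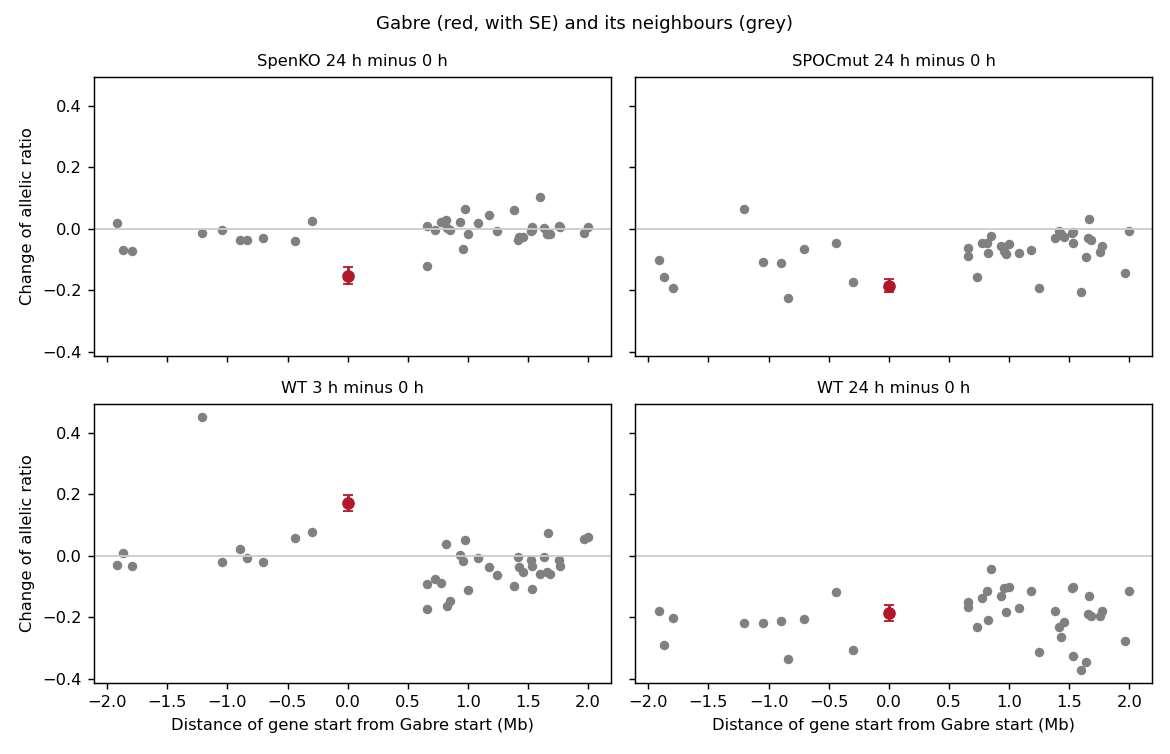
Change of the allelic ratio (difference of group means, vertical axis) of Gabre (red, with SE) and the 40 measured genes that start within 2 Mb of it (grey), by distance from the Gabre start in Mb. In SpenKO and SPOCmut at 24 h Gabre is among the lowest points. In WT at 3 h it is above 39 of its 40 neighbours, and in WT at 24 h it lies within them.

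Of 35 other genes of neurotransmission on the X, 15 were measured in the Spen table. In WT at 24 h 15 of 15 were called as falling, where 88.9% of all genes were, with a list median of -0.231 against -0.197. L1cam, an axonal adhesion molecule, fell by 0.372 ± 0.0816 (adjusted p = 0.00135) and Il1rapl1, a synaptic organiser, by 0.111 ± 0.0243 (adjusted p = 0.00132). Gria3, a subunit of AMPA-type glutamate receptors, fell by 0.305 ± 0.0482 (adjusted p = 0.000128).

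In SPOCmut 10 of the 15 list genes were called as falling at 24 h, beside 49.6% of all genes, with a list median of -0.0803 against -0.0658. Maob, a monoamine oxidase, fell by 0.212 ± 0.0414 (adjusted p = 0.00144). Gria3 was at -0.0740 ± 0.0394 (adjusted p = 0.143) and the creatine transporter gene Slc6a8 at -0.00711 ± 0.0236 (adjusted p = 0.837). The response of 11 of the 15 was called as smaller in SPOCmut than in WT, beside 58.5% of all genes, among them that of Gria3, by 0.231 ± 0.0623 (adjusted p = 0.00811). The 4 that did not pass included Maob, at -0.0562 ± 0.0654 (adjusted p = 0.470), and Aff2, at 0.0563 ± 0.0344 (adjusted p = 0.183).

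At 3 h in WT 1 of the 15 was called as rising and 2 as falling, near the 22.2% called over all genes. With only the 4 WT libraries of the comparison in the fit 0 of the 15 were called, and with Benjamini-Yekutieli adjustment 1. Aff2, a nuclear protein of the AF4 and FMR2 family, rose by 0.131 ± 0.0266 (adjusted p = 0.00525). The synaptic scaffold gene Dlg3 fell by 0.115 ± 0.0296 (adjusted p = 0.0164). In CIZ1 KO 13 of 15 measured list genes were called as falling at 24 h, near the 85% of all genes, with a list median of -0.249 against -0.207. In SpenKO 0 of the 15 were called at 24 h, where 0.741% of all genes were, and they ran from -0.121 (Aff2) to 0.103 (L1cam), with a median of -0.00410.

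Over the 17 libraries of the Spen table, the gene with the ratios nearest to those of Gabre was Aff2, with a root mean square difference of 0.0526. Aff2 changed with doxycycline for 24 h by -0.121 ± 0.0266 in SpenKO (value only), by -0.199 ± 0.0218 in SPOCmut (adjusted p = 2.53e-05) and by -0.255 ± 0.0266 in WT (adjusted p = 5.04e-06). The Gabre changes were -0.152 in SpenKO, -0.184 in SPOCmut and -0.187 in WT. Aff2 was picked for its nearness to Gabre over the same 17 libraries, so similar changes follow in part from that choice. Those libraries include the ones of the SpenKO contrast for which Gabre was chosen. The adjusted p-values of Aff2 do not allow for the choice, and its likeness to Gabre was not tested. The interleukin receptor gene Il13ra1 was in place 3, at 0.0747. The median over all genes was 0.123. Over the 10 libraries of the CIZ1 table the nearest genes to Gabre were BC023829 (0.0382), G6pdx (0.0395) and Kif4 (0.0443), and Gabra3 was only in place 216, at 0.169. Nearest to Gabra3 were the glycerol kinase gene Gyk (0.0998), the splicing regulator gene Mbnl3 (0.118) and C430049B03Rik (0.126), against a median of 0.191. Counted from Gabra3, Gabre was in place 61, at 0.169 and so nearer than the median gene.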

How the data were processed

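Chromatin-associated RNA was sequenced from ES cells and NPC, and the deposited values are allelic ratios, a fraction per gene and library. Per the submitters' processing notes the build was mm10 and the tools included STAR 2.4.2a, Bowtie2 2.3.2, bedtools, SAMtools, edgeR and featureCounts, with no roles given. The filter behind each gene list is not given in the sources used here. Where a table column says Dox without a time, the 24 h libraries of that line were assigned to it. The 2 X tables share 4 WT libraries and 248 genes with identical values. The chromosome 15 table (12 columns of ratios) was not used.

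limma 3.58.1 in R 4.3.3 was fitted to the raw ratios of every gene of a table, with all its libraries together and no replicate block, and p-values were adjusted over the table by Benjamini-Hochberg. Calls are at an adjusted p under 0.05. The fit was tested on simulated data. The members, gene lists and contrasts were chosen with earlier results of these data known. Named genes are the 2 members, genes starting within 2 Mb of Gabre, the list genes with the largest and smallest change and the 3 genes nearest each member. Gria3, Slc6a8, Dlg3 and Aff2 as list genes were chosen after their values were seen. Some genes that the rule or the counts cover are not reported here by name. The planned Gabra3 comparisons at 3 h and in SPOCmut were not made, since Gabra3 is in the CIZ1 table alone, and its WT and CIZ1 KO changes come from that table. SPOCmut clones pair the libraries at 24 h and 0 h, and their deviations from the group means correlated by -0.017, -0.113 and 0.148 over genes. Alternatives changed the scale, the moderation, the genes and libraries entered, library medians, the adjustment and the block. Promoter sequences are from RefSeq (GRCm38.p6).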

Additional observations from a re-analysis of the deposited data

How the results depend on the processing

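For 14 contrasts of the members, 182 values were recomputed, and 165 kept their direction and their side of the threshold or moved by less than the spread between libraries. For contrasts left untested only the size of the difference was compared. Changing the moderation, the adjustment, the genes entered, the block or the library medians cannot alter that size. Such values were kept by construction, so the count of 165 overstates stability. The rise of Gabre at 3 h in WT (0.172) lost its call with only the libraries of that comparison in the fit (adjusted p = 0.0854, range over its alternatives 0.000469 to 0.0854). There 2 genes were called, against 60 with all libraries and 38 with Benjamini-Yekutieli adjustment, and of the neurotransmission list 0 and 1, against 3. The list count for the difference of responses, SPOCmut minus WT, was 7 with Benjamini-Yekutieli adjustment, against 11. Leaving out 1 library at a time, the difference of the Gabre responses, SPOCmut minus WT, ran from -0.0124 to 0.0168, with its sign turning without WT 0 h replicate 1 or 24 h replicate 2 or without clone C10 at either time. The Gabra3 change in WT ran from -0.508 to -0.428. The Gabra3 difference, CIZ1 KO minus WT, ran from 0.251 to 0.332 at 24 h, from 0.0797 to 0.156 at 0 h and from 0.134 to 0.214 for the responses. Replicate numbers outside SPOCmut are not stated to pair libraries, and same-numbered deviations correlated by -0.107 to 0.161. With the replicate block no call on Gabre changed (SPOCmut -0.184, adjusted p = 0.000549). Ratios of genes with few reads are less precise, and without read numbers this limit cannot be set.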
